A study of Mus musculus with 6 samples.

Results

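Gene deserts are long stretches of the genome with no protein-coding gene. Accessible regions inside them were examined in brown pre-adipocytes, which give rise to the fat cells of brown fat, for places that were open before differentiation and no longer called open 1 day later. A region was counted when it overlapped a peak in 3 of 3 day 0 libraries and in 0 of 3 day 1 libraries, with its midpoint outside every protein-coding gene and more than 100 kb from the nearest end of one. There were 1406 such regions among 5816 accessible regions in gene deserts, 12066 day 0 only regions anywhere and 68913 regions in all. They are called day 0 only desert regions below.

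The assay was ATAC-seq, which cuts accessible DNA with a loaded transposase and sequences the fragments. The cells are labelled as the line BAT, wild type, and both groups are labelled brown pre-adipocytes. The groups were day 0 (3 libraries) and day 1 of brown adipocyte differentiation (3 libraries). The inducing agents are not given in the labels, and the replicates are not said to come from separate cultures, so the spread between them may be technical. In such bulk libraries, fewer cells with an open region and less opening per cell cannot be told apart.

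The day 0 libraries held 8127635 to 11011889 fragments and 39211 to 55511 peaks, and the day 1 libraries 4919755 to 7302457 fragments and 12556 to 23274 peaks. Day 1 replicate 3 had the most fragments of its day and the fewest peaks. Among markers of the labelled cell type, 3 of 8 preadipocyte and mesenchymal genes (Pdgfrb, Ebf2 and Ly6a) had a gene-end peak in all day 0 libraries, and Pdgfra, Cd34, Dlk1 and Thy1 had none in any library. Zic1 and Cebpa of the brown lineage had a peak in all 6 libraries, and Prdm16, Ucp1 and Cidea in none. Of the markers of other lineages, 1 of 4 endothelial (Kdr), 1 of 4 immune (Cd68), 0 of 4 muscle and 2 of 3 neuronal genes (Tubb3 and Snap25) had a peak in 3 of 3 day 0 lists. Pecam1, Cdh5 and Tek of the endothelial list and Ptprc, Adgre1 and Cd3e of the immune list had none in any library. Their part in the results was not tested.

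Distal open chromatin is where most enhancers lie, and enhancers can act on a gene over long distances by chromatin looping. Deserts often surround genes of development and growth control, whose expression depends on many scattered enhancers, and they also hold long non-coding RNAs (lncRNAs) and microRNAs. In precursor cells of fat, factors such as AP-1, TEAD and RUNX proteins are known to occupy distal sites that change as adipogenic factors take over. Which gene a desert region acts on cannot be read from its position, so flanking genes are given here as landmarks only.

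Some of these regions lay beside microRNA genes that sit in deserts. RefSeq places 105 of its 1005 mouse microRNA hairpins in gene deserts, and 9 of those had a day 0 only desert region within 10 kb. By comparison 26 of the 105 had another desert region within 10 kb, and 8 had one open in all 6 libraries. These 3 classes hold 1406, 4410 and 231 regions, so the counts do not set day 0 only regions apart. Among the 9 hairpins, 5 belong to the paired clusters of miR-100 and miR-99a with let-7 and miR-125b, which are known for repressing growth and stem cell genes. Neighbouring hairpins of a cluster can share a region, so the 5 are not separate cases. Among the 5, miR-100 or miR-99a and let-7 occur on chromosomes 9 and 16, and miR-125b on chromosome 9 only. Some of their mature sequences (RefSeq, GRCm38.p6, the assembly that mm10 names) are shown, with the seed (bases 2 to 8) in capitals.

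miR-100-5p: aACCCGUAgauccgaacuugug
miR-99a-5p: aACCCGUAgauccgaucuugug
let-7c-5p: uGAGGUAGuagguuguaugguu
miR-125b-5p: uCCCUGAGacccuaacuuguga

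The seeds of miR-100-5p and miR-99a-5p are the same 7 bases, ACCCGUA, so by seed they form 1 family. Next to the miR-100 hairpin, 1.73 kb away and 3.21 kb from the let-7a-2 hairpin, the region chr9:41533230-41533503 had fold enrichments of 3.91, 6.57 and 5.70 in day 0 replicates 1, 2 and 3. Fold enrichment is the authors' ratio of the fragment pileup at a peak's summit to the local background of the same library. Beside the miR-125b-1 hairpin, 1.94 kb away, the region chr9:41579726-41579991 had 8.49, 8.31 and 6.56. Both lie inside the lncRNA Mir100hg, the host transcript of this cluster, which held 5 day 0 only regions among 17 desert regions over 239 kb. Over all desert regions the day 0 only share was 24.2%. Of the 17, 7 had a peak in at least 1 day 1 list and 1 in all 6 lists, so open and no longer called regions stood side by side in the host gene.

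On chromosome 16, the region chr16:77602595-77603076 lay 3.60 kb from the miR-99a hairpin and 2.84 kb from that of let-7c-1. It was higher, with fold enrichments of 14.04, 10.6 and 9.15 in the 3 day 0 libraries. The gap that holds it, between Usp25 and Cxadr, had 5 day 0 only desert regions, given as a count alone. Inside the lncRNA Mir99ahg lay 1 of them, among 6 desert regions, and the share over all desert regions was 24.2%. The other hairpins within 10 kb were those of miR-1899, miR-378d, miR-6390 and miR-6420, at 3.82, 7.6, 7.52 and 0.89 kb.

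Genome sequence of the regions was not used here, but 19 day 0 only desert regions (1.35%) overlapped a RefSeq promoter window, a stretch of 300 bases around a transcript start. The share was 1.41% among the 4410 other desert regions and 5.63% among the 231 desert regions open in all 6 libraries. Other desert regions, here and below, are not all regions kept at day 1. Of the 4410, 1867 had a peak in 1 day 0 list and none at day 1. In all, 2321 desert regions had a peak in at least 2 of 3 day 0 lists and none at day 1. Of these, 1406 were the day 0 only ones and the rest were among the 4410. All 19 windows belong to genes that RefSeq lists as lncRNAs. The windows printed here are those with at least 240 bases inside a region whose mean fold enrichment was above 10 and that hold an AP-1 or RUNX motif, chosen after the values were seen. Of these, Gm13816 is left out for space. Capitals mark matches on either strand to AP-1 (TGANTCA), RUNX (TGTGGT) and TEAD (GGAATG) motifs, and no motif overlapped another in them.

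Gm32009 promoter: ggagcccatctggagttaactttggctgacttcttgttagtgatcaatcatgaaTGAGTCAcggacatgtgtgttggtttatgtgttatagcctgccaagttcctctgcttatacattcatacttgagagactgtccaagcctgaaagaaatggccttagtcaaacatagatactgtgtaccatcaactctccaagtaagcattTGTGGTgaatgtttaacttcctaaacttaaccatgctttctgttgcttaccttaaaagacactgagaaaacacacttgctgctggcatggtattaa
Gm3716 promoter: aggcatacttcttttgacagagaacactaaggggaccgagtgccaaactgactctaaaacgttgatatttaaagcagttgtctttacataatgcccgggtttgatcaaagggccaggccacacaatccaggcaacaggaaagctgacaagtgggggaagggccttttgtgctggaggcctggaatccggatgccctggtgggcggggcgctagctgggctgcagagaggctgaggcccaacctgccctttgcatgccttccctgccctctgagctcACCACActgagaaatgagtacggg
Gm6634 promoter: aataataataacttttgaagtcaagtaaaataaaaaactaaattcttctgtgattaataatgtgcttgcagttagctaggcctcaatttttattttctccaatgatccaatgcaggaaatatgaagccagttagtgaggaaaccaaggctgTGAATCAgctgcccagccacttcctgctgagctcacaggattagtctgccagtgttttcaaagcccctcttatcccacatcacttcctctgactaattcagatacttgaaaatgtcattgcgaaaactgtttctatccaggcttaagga
Morrbid promoter: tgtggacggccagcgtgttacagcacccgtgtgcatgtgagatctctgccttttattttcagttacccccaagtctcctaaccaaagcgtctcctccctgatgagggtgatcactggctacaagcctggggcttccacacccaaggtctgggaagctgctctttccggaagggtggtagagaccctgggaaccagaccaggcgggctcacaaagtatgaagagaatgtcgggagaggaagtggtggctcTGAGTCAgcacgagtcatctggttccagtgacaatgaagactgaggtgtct

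These windows are chr6:95841659-95841958 on the plus strand, chr5:64610650-64610949 on the minus strand, chr3:70807242-70807541 on the minus strand and chr2:128429302-128429601 on the minus strand, in that order, each printed 5′ to 3′ in the direction of transcription. The region over the Gm32009 start had fold enrichments of 20.2, 16.3 and 14.4 in the 3 day 0 libraries, and its window holds 1 AP-1 and 1 RUNX match. At Gm3716 the values were 13.5, 13.5 and 10.97, at Gm6634 12.5, 11.7 and 12.6, and at Morrbid 8.23, 10.7 and 11.4. Morrbid is a lncRNA known for controlling the lifespan of short-lived myeloid cells through Bcl2l11, the coding gene at its left. Its body held 5 day 0 only regions among 16 desert regions, and the share over all 5816 desert regions was 24.2%. None of the 16 was open in all 6 libraries, but only 231 of the 5816 were.

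Across the 19 windows, an AP-1 match occurred in 7 (36.8%), a RUNX match in 9 (47.4%) and a TEAD match in 6 (31.6%). Among all 32815 RefSeq promoter windows the shares were 7.81%, 16.8% and 14.7%, and among 11586 lncRNA windows 9.31%, 20.1% and 16.6%. In 65 windows that overlapped other desert regions they were 20%, 18.5% and 27.7%. C/EBP (TTGCNNAA) was found in 2 of 19 windows against 29.2% of those 65 and 10.8% of all. The single-arm site of nuclear factor I (TTGGCA) was found in 6 against 18.5% and 14.1%, and the steroid receptor core (ACANNNTGT) in 3 against 10.8% and 6.85%. The E-box CATCTG was found in 5 against 21.5% and 17.2%, and the homeobox core TAATTA in 1 against 7.69% and 5.30%. The full nuclear factor I palindrome, the EBF palindrome, CREB (TGACGTCA) and the CTCF core were in none of the 19, and in 0.037%, 0.91%, 1.79% and 2.43% of all windows in that order. The windows are few, so these shares describe them and no more.

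Day 0 only calls made up 24.2% of desert regions (exact 95% binomial interval 23.1 to 25.3%), against a background of 17.5% over all 68913 regions. The shares were 20.1% for regions 1 to 100 kb from a gene end, 19.4% inside genes and 5.97% within 1 kb of a gene end. Membership was set by these calls, so the shares are a description and carry no test, and the intervals cover counting error only. Day 0 only desert regions were 11.7% of the 12066 day 0 only regions. Of the 2156 desert regions with a peak in 3 of 3 day 0 lists, 1406 (65.2%) had no day 1 peak, 326 had one in 1 day 1 list, 193 in 2 and 231 (10.7%) in all 3. Within deserts the share with no day 1 peak was 63.6% at 100 to 200 kb from a gene end, 66.7% at 200 to 500 kb and 68.2% beyond 500 kb.

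The height of a region at day 0 moved with these counts. Median fold enrichment of the day 0 only desert regions was 9.37, 8.23 and 7.32 in day 0 replicates 1, 2 and 3, with ranges of 3.17 to 23.0, 3.60 to 22.1 and 3.37 to 20.1. The regions open in all 6 libraries had medians of 12.6, 11.5 and 10.5, and those with 1 or 2 day 1 peaks fell between in every day 0 library. Median peak width followed the same order, at 347, 285.5 and 237 bp for the day 0 only desert regions and 517, 471 and 432 bp for those open in all 6 libraries.

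**Figure D1:**
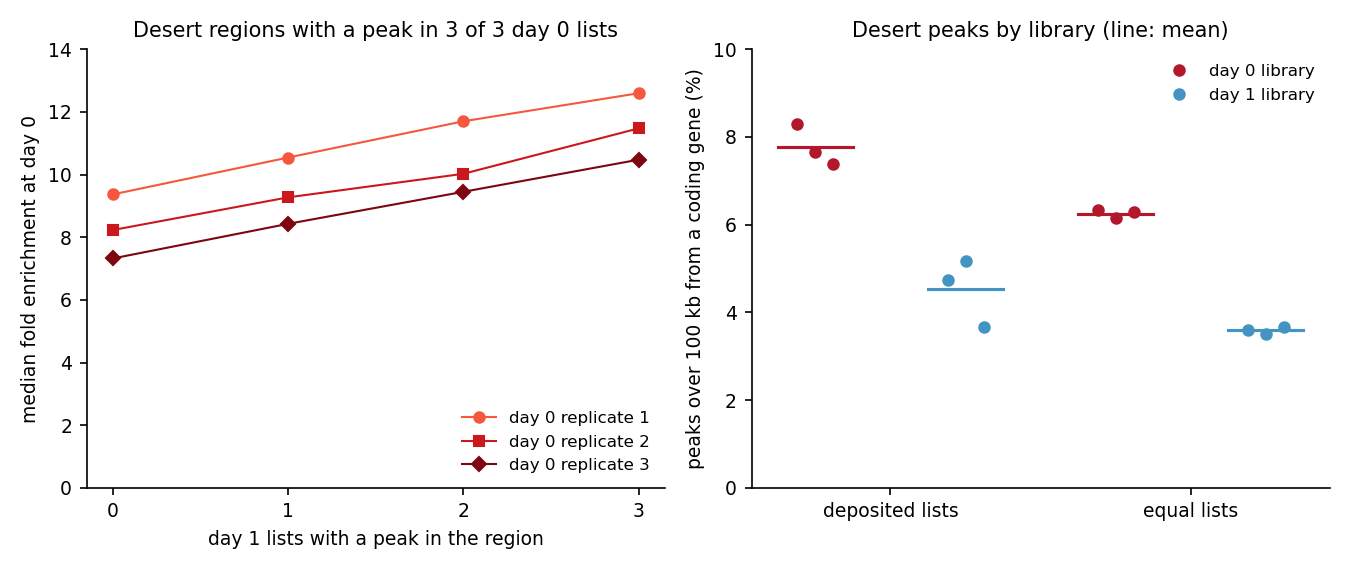
Left, median fold enrichment at day 0 (authors' ratio, 1 line per day 0 library) of desert regions with a peak in 3 of 3 day 0 lists, by the number of day 1 lists with a peak. It is lowest for regions with 0 day 1 peaks (7.32 to 9.37) and highest for those with 3 (10.5 to 12.6). Right, percent of each library's peaks that lie in deserts in the deposited lists and in lists of equal length, with points for libraries and lines for means of 3.

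Regions of like height were therefore set side by side, by summit height scaled to 1000000 fragments of each library. Among regions with a peak in 3 of 3 day 0 lists and a mean scaled summit height of 2 to 3, 61.4% of 503 desert regions had no day 1 peak (interval 57.0 to 65.7%). For regions 1 to 100 kb from a gene end it was 47.9% (45.6 to 50.2%), for regions inside genes 45.6% (43.8 to 47.5%) and at gene ends 7.6% (6.54 to 8.77%). In the highest band, of at least 3, the shares were 31.9%, 24.0%, 22.5% and 0.89%. The desert share was the highest of the 4 positions in each of the 5 bands, although below a scaled height of 1 its interval (76.7 to 88.7%) overlapped those of the near-gene and within-gene regions.

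**Figure D2:**
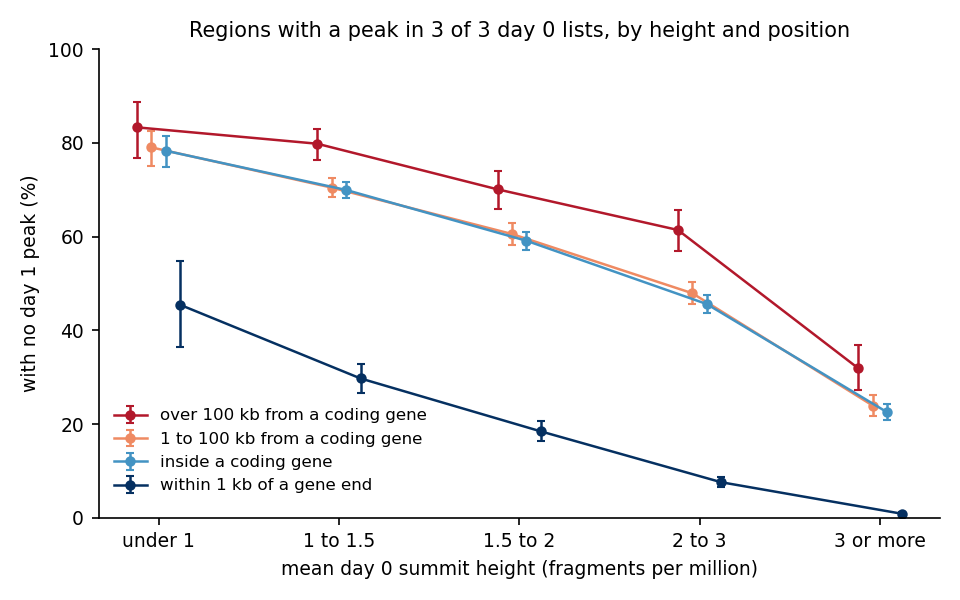
Percent of regions with a peak in 3 of 3 day 0 lists that had no peak in any day 1 list (vertical) by mean day 0 summit height scaled to 1000000 fragments (horizontal), for 4 positions. Error bars are exact 95% binomial intervals. The desert line runs from 83.3% in the lowest band to 31.9% in the highest and lies above the other lines.

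Depth also differed between the days. Scaled to the depth of day 1 replicates 1, 2 and 3, the median of the mean day 0 heights of the day 0 only desert regions would be 7.87, 8.96 and 11.7 fragments. The day 1 lists called desert peaks down to 4, 4 and 5 fragments, with medians of 8, 8 and 9. At those depths, 98.2%, 99.5% and 98.2% of the day 0 only desert regions would reach the 5th percentile of the called desert peaks of day 1 replicates 1, 2 and 3, and 48.3%, 60.5% and 74.0% would reach their median. This scaling takes enrichment over background to be alike on both days. Median fold enrichment of all called desert peaks was 7.20, 7.47 and 7.16 in day 0 replicates 1, 2 and 3. In those of day 1 it was 5.94, 5.64 and 6.09. The calls also depend on local background, and the parts of depth and enrichment in them were not tested.

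Deserts took 8.30%, 7.66% and 7.37% of each day 0 library's peaks. For the day 1 libraries the values were 4.74%, 5.18% and 3.66%. When each library was limited to its 12556 strongest peaks by q, the number in the shortest list, day 0 libraries had 6.32%, 6.16% and 6.28%. Those of day 1 then had 3.60%, 3.51% and 3.66%. The days did not overlap in either form. These shares hold the peaks that chose the regions, so no test was made. In the equal lists 288 desert regions were day 0 only, which is 19.4% of 1487 against a background of 9.11% over all regions. The shares there were 13.6% for regions 1 to 100 kb from a gene end, 12.2% inside genes and 0.80% at gene ends. Of the 288, 80 had a weaker day 1 peak in the deposited lists, and 208 had none and overlapped 208 (14.8%) of the 1406.

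Compared with the 4064 day 0 only regions 1 to 100 kb from a gene end, the median fold enrichment in deserts was higher by 0.85, 0.61 and 0.28 in the 3 day 0 libraries. Against the 5836 day 0 only regions inside genes it was higher by 0.94, 0.63 and 0.31. Median width was greater by 27, 9.5 and 14 bp and by 25, 6.5 and 10 bp. Exact two-sided sign-flip permutation over the 3 libraries gave p = 0.25 for each of these, the smallest this design allows (0.333 after Benjamini-Hochberg adjustment over 8 tests). Median summit pileup was 19, 14 and 12 fragments in deserts and was 0 fragments from the near-gene median in all 3 libraries, and 0, 1 below and 0 from the within-gene median.

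Within a day 0 only desert region the 3 day 0 libraries differed by a median coefficient of variation of 22.8% in scaled summit height. Replicate 3 was the highest of the 3 libraries in 91 of the 1406 regions, replicate 1 in 593 and replicate 2 in 722. The libraries thus differed in overall height and not only region by region.

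The 12 day 0 only desert regions with the highest mean fold enrichment ranged from 17.0 to 19.8. All 12 were also day 0 only in the equal lists. Shorter lists cannot add a day 1 peak, so this says only that their day 0 peaks were among the strongest of each list. The highest lay at chr4:28424291-28424682, 389 kb from Epha7, which encodes a receptor for ephrins in cell guidance, with 19.4, 20.2 and 19.9 in the 3 day 0 libraries. The next, chr15:24921164-24921562, lay between the cadherin gene Cdh18 and Basp1, a gene of a membrane-bound signalling protein, 442 kb from the latter, with 20.7, 22.1 and 16.4. At chr3:56962406-56962956, 323 kb from the surface protein gene Tm4sf1, the values were 20.7, 20.5 and 17.8. Replicate 3 was the lowest of the 3 in the last 2 of these regions but not in the first.

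A region with 21.7, 16.8 and 19.6 lay at chr13:110929616-110930024, 325 kb from Actbl2, an actin-related gene. Another with 17.0, 21.4 and 16.7 lay at chr12:16145487-16145942 between Trib2, a pseudokinase gene, and Lpin1, which encodes a phosphatidate phosphatase of triglyceride synthesis, 329 and 390 kb away. At chr5:101163149-101163570, between the acyltransferase gene Gpat3 and Nkx6-1, 264 and 496 kb away, the values were 15.4, 20.5 and 15.6. The last of the 12, chr1:72002291-72002755, lay in the gap between the fibronectin gene Fn1 and Mreg, 157 kb from the latter, with 21.0, 14.5 and 15.7. The others lay nearest to Cxadr, Cpne8, Ankrd7, Zwint and Pcdh18, with means of 17.3 to 19.05.

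Clustering along the genome was described in 3 ways: by gap between neighbouring coding genes, by distance to the next region, and by the kind of neighbour. Of 1689 gaps longer than 200 kb, 914 held any desert region and 531 held a day 0 only one. There were 205 gaps with 1, 129 with 2, 121 with 3 or 4 and 76 with 5 or more, and these 76 held 534 regions (37.98%). The 119 gaps with the most regions held 50% of them. Gaps with a day 0 only region had a median length of 586 kb, against 368 kb for gaps without one. Longer gaps have more room for regions of any kind, and gaps without one include those with no desert region. The same figures are not given for all desert regions, so these do not set day 0 only regions apart.

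The fullest gap by far was the one on chromosome 15 between Myc, the growth-promoting transcription factor gene, and the gasdermin gene Gsdmc. It spans 1786 kb and held 25 day 0 only regions among 75 desert regions (33.3%), 2 of them open in all 6 libraries and 0 day 1 only. The 25 lay 122 to 1611 kb from Myc, and 21 of them had another within 50 kb. The highest, chr15:62321017-62321307, had fold enrichments of 16.9, 11.6 and 11.9 in the 3 day 0 libraries and lay 331 kb from Myc. Inside Pvt1, the lncRNA next to Myc, there were 5 among 13 desert regions, and the share over all desert regions was 24.2%. Replicate 1 was the highest at this leading region, and the median of the 25 was 9.65, 9.29 and 6.69 by library.

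Matrix genes were 6 of the 150 genes that flank the 76 fullest gaps (4%). Adhesion genes were 8% and developmental transcription factors 7.33%. The lists differ in size, and their shares among genes that flank any gap over 200 kb were 1.07%, 3.77% and 4.70%, in that order. Gaps were ranked by count and not by share, and the share over all desert regions was 24.2%. The gap of Adamts5, which encodes a proteoglycan-cleaving protease, held 12 day 0 only regions among 48 desert regions (25%), near that share. That of Thbs1, the gene of the matrix glycoprotein thrombospondin 1, held 11 among 33. The pair of gaps beside Has2, which encodes a hyaluronan synthase, held 15 among 40, and the gap of Fn1 held 8 among 25. In the Adamts5 gap the highest region, chr16:86138236-86138476, had 14.5, 13.6 and 12.05 in the 3 day 0 libraries and lay 237 kb from the gene. In the Thbs1 gap chr2:117668098-117668467 had 13.5, 11.1 and 12.9 at 444 kb.

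Some of the 10 fullest gaps lay beside signalling genes, named here one by one. As a list, secreted signals were 2 of the 150 genes that flank the 76 fullest gaps (1.33%). Their share among genes that flank any gap over 200 kb was 1.71%. The gap between Lyplal1 and Tgfb2, the gene of transforming growth factor beta 2, held 11 among 19 desert regions (57.9%) and none open in all 6 libraries. All 11 had another within 50 kb, and they lay 129 to 333 kb from Tgfb2. Its highest region, chr1:186478399-186479012, had 13.6, 9.44 and 10.8. The gap between Nyap2 and Irs1, which encodes the main docking protein of the insulin receptor, held 11 among 23, from 123 to 707 kb from Irs1, and 0 open in all 6 libraries. Its highest region, chr1:81950096-81950553, had 13.4, 8.87 and 9.46 and lay 283 kb from Irs1.

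The gap of Cxcl12, a chemokine gene of stromal cells, held 9 among 19, led by chr6:117613840-117614515 with 15.0, 16.8 and 13.1. That of the ephrin gene Efnb2 held 9 among 22 over 3512 kb, and that of the Wnt receptor gene Fzd8 held 9 among 23. The remaining 2 of the 10 were the gap between Ccer1 and the calcium pump gene Atp2b1, with 10 among 28, and that between Trib2 and Lpin1, with 9 among 24. The gap of Klf4, a Krüppel-like factor gene, and that between Nmbr and Cited2, a transcriptional coregulator gene, also held 9 each, among 27 and 36. For the Cited2 gap this is 25%, near the 24.2% over all desert regions. In none of these 12 gaps was every desert region day 0 only, nor in any of the 418 gaps with at least 5 desert regions. Of those 418 gaps, 50 had no day 0 only region and 30 had them as at least 50% of their desert regions.

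**Figure D3:**
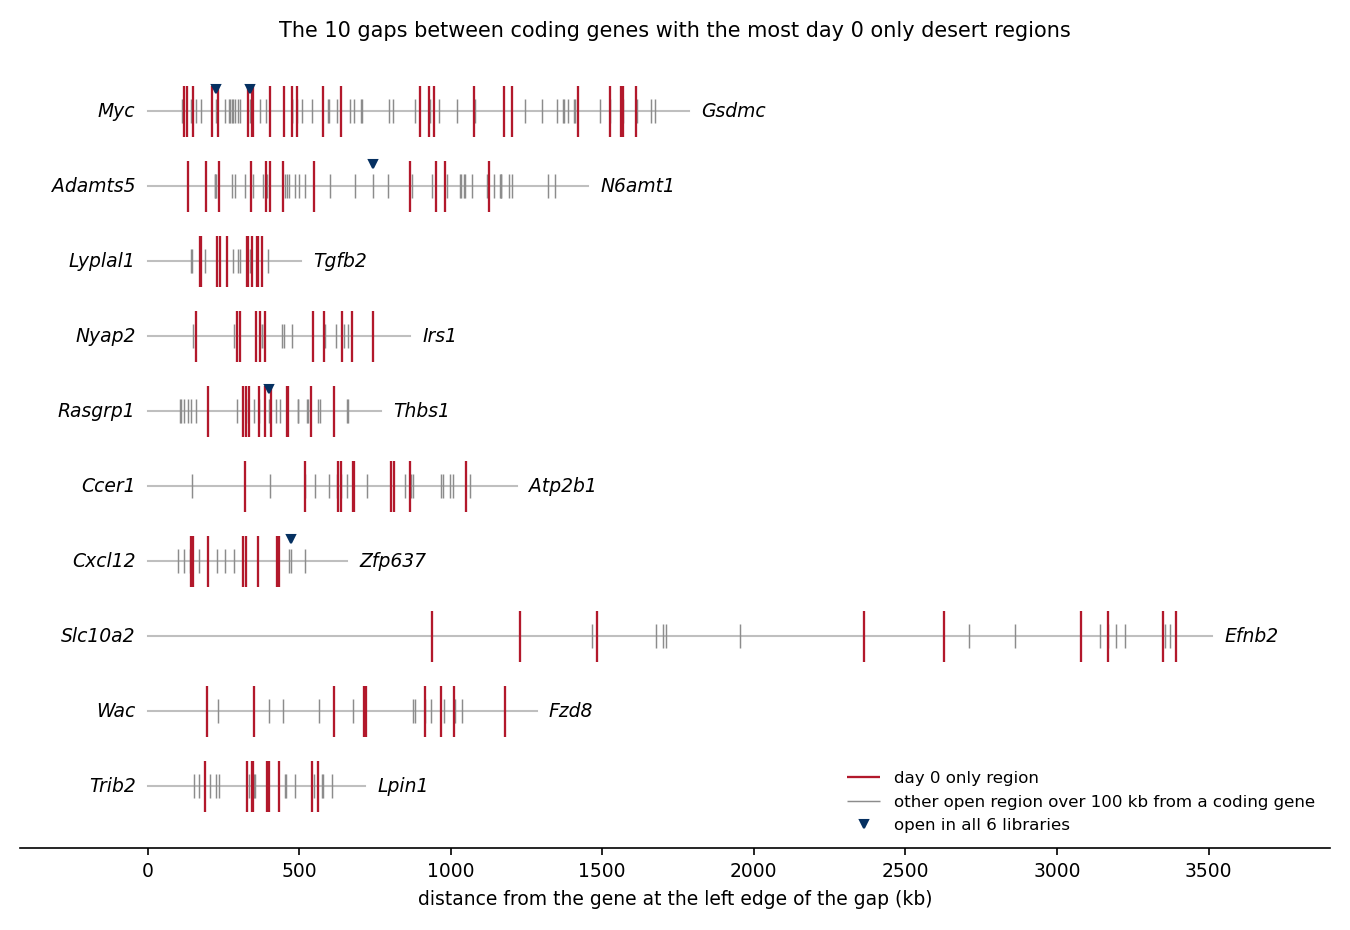
Positions of accessible regions over 100 kb from a coding gene in the 10 gaps with the most day 0 only desert regions, as distance in kb from the gene at the left edge. Tall red lines are day 0 only regions, short grey lines other desert regions and triangles regions open in all 6 libraries. The red lines, 25 beside Myc and 9 to 12 in the other gaps, lie among the grey ones.

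By distance, 738 of the 1406 day 0 only desert regions (52.5%) had another in the same gap within 50 kb, and 249 (17.7%) within 10 kb. The share within 50 kb was 16.3% for the 288 regions of the equal lists and 23.9% for the 519 of equal lists without day 1 replicate 3. These 738 formed 288 runs, of which 189 had 2 regions, 63 had 3, 19 had 4 and 17 had 5 or 6. The median run spanned 29.6 kb. The densest run of 6 covered 49.2 kb at chr1:186444792-186493991 beside Tgfb2. Others of 6 lay between Hmga2, the gene of a chromatin protein of growing mesenchymal cells, and Msrb3, and between Plk2 and Actbl2. Among all 5816 desert regions 82.7% had another within 50 kb and 46.5% within 10 kb, and among the 231 open in all 6 libraries the shares were 18.6% and 5.19%. These shares rise with the number of regions in a class, so they do not compare how closely the classes cluster.

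The kind of the nearest neighbour was therefore set beside the share of day 0 only regions among all desert regions, which it follows. For 1372 day 0 only desert regions with any desert region in their gap, the nearest one was itself day 0 only in 341 cases, or 24.9% (exact 95% binomial interval 22.6 to 27.2%). For 4235 other desert regions it was 1059 cases, or 25.01% (23.7 to 26.3%), and the share of day 0 only regions among all desert regions was 24.2%. With neighbours closer than 5 kb the values were 23.6% (19.7 to 27.9%) and 26.9% (24.4 to 29.5%), and at 5 to 20 kb 26.6% and 25.5%. Among the 2156 desert regions with a peak in 3 of 3 day 0 lists, the nearest of them was day 0 only for 66.3% of the day 0 only regions. It was so for 68.2% of those with 1 or 2 day 1 peaks and for 60.4% (53.4 to 67.1%) of those open in all 6 libraries. The intervals take regions as independent. Regions share gaps and a pair can be counted from both sides, so the intervals are likely too narrow. On these shares, day 0 only regions had day 0 only neighbours about as often as other desert regions did, which was not tested. By this measure they lay interspersed among the other desert regions. Many of those also lacked a day 1 peak, since 1867 of the 4410 had a peak in 1 day 0 list and none at day 1. Others of the 4410 had one in 2 of 3 day 0 lists and none at day 1. With at least 2 of 3 day 0 lists, 2321 desert regions had no day 1 peak, the 1406 day 0 only ones included.

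By chromosome, the share of desert regions that were day 0 only ran from 18.9% on chromosome 7 to 29.6% on chromosome 4. Chromosome 10 held the most, 141 among 571 desert regions, or 4.16 per Mb of desert, followed by chromosome 15 with 117, or 3.41 per Mb. The X chromosome had 25, or 0.43 per Mb, and the Y chromosome 0 desert regions. Chromosomes thus differed in how many accessible desert regions they held far more than in the share that was day 0 only.

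The flanking coding genes, the nearest on each side, were grouped by 8 lists of gene families. Transcription factors of development flanked 213 (15.1%) of the day 0 only desert regions and 16.5% of the other desert regions. Genes of cell adhesion and axon guidance flanked 10.5% and 10.6%, regulators of fat cell formation 9.46% and 8.25%, and matrix genes 6.12% and 4.40%. For secreted signals the shares were 4.34% and 3.70%, for ion channels and transmitter receptors 3.20% and 3.72%, and for the AP-1, TEAD and immediate early genes 2.28% and 2.29%. Chemosensory receptors flanked 6 day 0 only desert regions (0.43%) and 0.93% of the others. Regions of 1 gap share their flanks, so these shares describe few independent places and were not tested.

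Counted by gene, developmental transcription factors were 69 of the 988 genes that flank a gap with a day 0 only region (6.98%). They were 6.996% of the genes that flank gaps with other desert regions alone, 4.70% of those that flank any gap over 200 kb and 1.59% of all 21883 coding genes. For regulators of fat cell formation the shares in that order were 3.14%, 2.06%, 1.71% and 0.32%, and for matrix genes 1.92%, 1.097%, 1.07% and 0.72%. Chemosensory receptor genes, which lie in large clusters, were 0.20%, 0.69%, 1.03% and 6.94%. Gaps with open desert regions of either kind thus had a higher share of developmental factors among their flanks than all coding genes have, and the differences between the kinds were not tested.

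**Figure D4:**
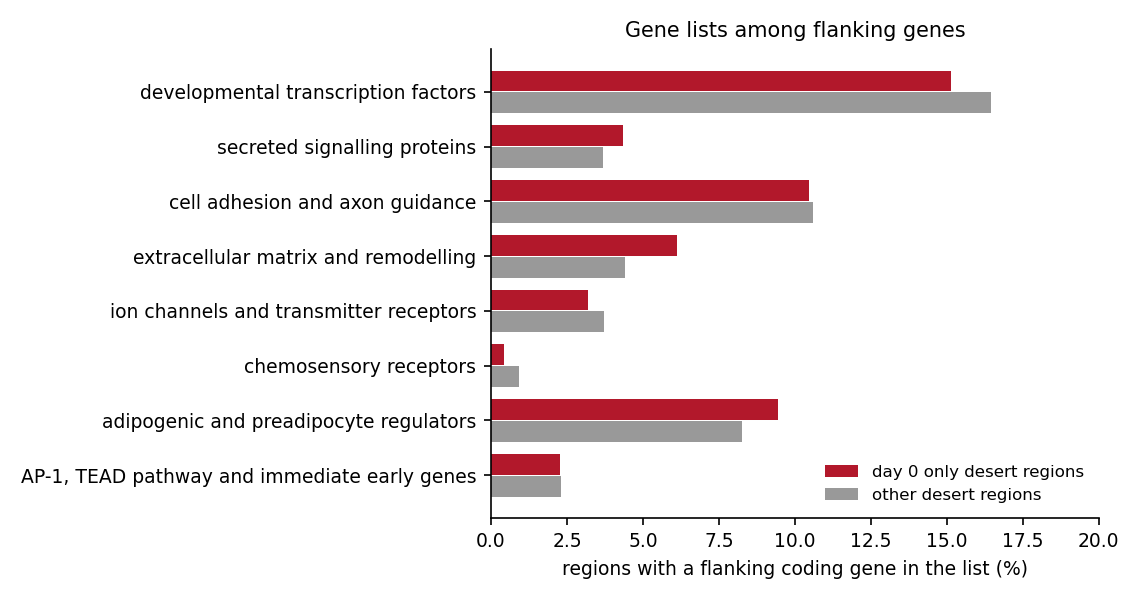
Percent of day 0 only (red) and other (grey) desert regions with at least 1 flanking coding gene in each of 8 gene lists. The pairs are close, for example 15.1% and 16.5% for developmental transcription factors and 6.12% and 4.40% for matrix genes.

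Of the fat cell regulators, Irs1 and Tgfb2 flanked 11 day 0 only desert regions each, among 23 and 19 desert regions. Klf6 flanked 10, Klf4 9 among 27, Meis1 8 among 23 and Runx1t1 8. Genes were picked by count and not by share, and the share over all desert regions was 24.2%. Runx1t1 encodes a transcriptional corepressor, and its 8 were among 13 desert regions, 101 to 536 kb away. Klf6, another Krüppel-like factor gene, had 10 among 36, and a run of 5 between it and Pitrm1 had no other desert region inside its 103 kb. Among developmental factors, Foxa2 and Osr1 flanked 9 each, among 28 and 37 desert regions. Osr1 marks embryonic mesenchyme, and one of the widest day 0 only desert regions, 1116 bp at chr12:9839269-9840384, lay 258 kb from it with 12.9, 11.2 and 10.6. Runx1, named after its values were seen because the series concerns RUNX1 and RUNX2, flanked 7 among 24, 3 of them open in all 6 libraries, from 127 to 636 kb away.

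Counts in this paragraph are given as day 0 only of all desert regions beside a gene, and the share over all desert regions was 24.2%. Among adhesion genes, Epha7 flanked 12 of 34, Efnb2 9 of 22, Csmd3 8 of 29, Cdh18 7 of 25, Ctnna3 7 of 29 and Nrp1 7 of 21. Of the secreted signals after Tgfb2 and Cxcl12, Bmp4, which can commit precursors to fat, flanked 4 of 12. Il7 flanked 3 of 8, Inhba 3 of 15 and Nrg1 3 of 7. The matrix genes after Has2, Adamts5, Thbs1 and Fn1 were Tnc with 7 of 19 and Mmp16 with 5 of 7. Beyond Myc, which flanked 27 of 102 on its 2 sides, the AP-1 and TEAD list had Ccn2 with 3 of 6, Jun with 1 of 12 and Nr4a3 with 1 of 5. Ion channel genes were led by Kcna4 with 5 of 23, Gria1 with 4 of 17, Htr2a with 4 of 16 and Kcnrg with 4 of 18. Chemosensory receptors were led by Tas2r134 with 4 of 9 and Olfr1505 with 2 of 6.

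Deserts of coding genes are not free of other genes. Of the 1406 regions, 304 (21.6%) had their midpoint inside an annotated lncRNA, against 19.95% of the other desert regions and 28.1% of those open in all 6 libraries. Within 1 kb of a lncRNA end lay 4.05%, 4.31% and 9.52%, in that order. The 304 fell in 239 lncRNAs, of which 58 held at least 2, and Mir100hg, Morrbid and Pvt1 held the most with 5 each. More than 100 kb from any annotated gene lay 211 (15.0%), against 13.9% of the other desert regions.

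The distance to the nearest coding gene end had a median of 198 kb and reached 2042 kb, and 120 regions (8.53%) lay beyond 500 kb. The most remote, chr14:82065298-82065653 between Olfm4 and Pcdh17, had fold enrichments of 13.2, 13.6 and 9.80, and its day 0 peaks were strong enough to stay in the equal lists. The next 4 lay in the gaps between Celf4 and Pik3c3, Slc10a2 and Efnb2, Zeb2 and Acvr2a, and Dsel and Cntnap5a, 1433 to 1667 kb from a gene end, with means from 4.76 to 10.2. At the other limit, the 3 regions just inside 100 kb lay 100.2, 100.3 and 100.4 kb from Asap1, Trpc6 and Peli1, with mean fold enrichments of 5.13, 11.97 and 6.76. The 3 just outside, at 99.98, 99.87 and 99.80 kb from Ccnd2, Spcs3 and Btg1, had 8.72, 5.88 and 5.62. The 116 regions up to 10 kb beyond the limit had a median of 8.40 and the 128 intergenic day 0 only regions up to 10 kb short of it one of 8.11.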

How the data were processed

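ATAC-seq was measured in 6 libraries, 3 at day 0 and 3 at day 1. Peaks were called per library with MACS2 2.2.7.1 on paired-end fragments, with no control library, a q cutoff of 0.05 and a local background over 10000 bp, per the file headers. The authors' pileup signal counts fragments at the summit and was deposited unscaled. The authors' −log10 p and q values and their fold enrichment ratio compare it with the local background. The submitters' processing notes name mm10, HOMER 4.11, DiffBind 3.8.4, Bowtie2 2.4.4, deepTools 3.5.1, SAMtools 1.15.1 and Trim Galore 0.6.7, with no role given.

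Peaks on chromosomes 1 to 19, X and Y that shared at least 1 bp were merged into regions (Python 3.11.15, pandas 2.3.3, SciPy 1.17.1). Where a library had several peaks in a region, the one with the best q was used. Distances run from the region's midpoint to the ends of 21883 RefSeq coding genes of GRCm38.p6, which the table gives without strand or exons. The members and gene lists were chosen with earlier results of these data known. Named items are the 12 strongest, 5 most remote and 3 widest regions, the 3 nearest each side of 100 kb, the 10 fullest gaps and up to 6 flanking genes per list. The planned motif search in whole regions was not run, for want of a genome of this build here. Promoter windows were searched instead, a choice made after seeing the data. The merging and distance steps were tested on simulated data. Depth per library ranged from 4919755 to 11011889 fragments.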

Additional observations from a re-analysis of the deposited data

How the results depend on the processing

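The count of 1406 day 0 only desert regions was 1303 with −log10 q of at least 5, 1403 with 50% overlap and 1428 to 1939 without 1 library in turn. It was 2262, 688 and 120 beyond 50, 200 and 500 kb, 211 with distance to any gene, 288 in equal lists, 2321 with at least 2 of 3 day 0 lists, and 519 in equal lists without day 1 replicate 3, a setting added after seeing the data, at 20069 peaks per list. The share of desert regions that were day 0 only (24.2%) was 21.0% beyond 500 kb, 32.1% with −log10 q of at least 5, 19.4% and 20.1% in the 2 kinds of equal lists, 39.9% with at least 2 day 0 lists and 24.7 to 34.6% without 1 library. The share of day 0 only regions in deserts (11.7%) was 18.7%, 5.70% and 0.99% beyond 50, 200 and 500 kb, 13.5% and 13.6% in equal lists, 10.9% with at least 2 day 0 lists and 10.9 to 11.6% without 1 library. The share within 50 kb of another (52.5%) was 48.8% and 32.5% beyond 200 and 500 kb, 48.5% with −log10 q of at least 5, 16.3% and 23.9% in equal lists, 62.7% with at least 2 day 0 lists, 35.1% and 66.1% at 25 and 100 kb, and 52.6 to 58.3% without 1 library. Fewer regions per class make this share smaller. The nearest desert region was day 0 only for 25.1% of day 0 only and 25.6% of other desert regions without day 1 replicate 3, for 21.7% and 18.2% in equal lists, and for 32.6% and 33.95% with −log10 q of at least 5. No paired analysis was possible because the regions were chosen by the contrast of the days, so that contrast was given no test, paired or unpaired. Depth limits what a missing day 1 peak shows.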
